A study of Mus musculus with 6 samples.

Results

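Gata1, Klf1, Tal1, Lmo2, Nfe2, Epor, Itga2b and Pf4, regulators and markers of red cell and platelet precursors, were followed in a mouse cell line with an inducible JAK2 fusion. They were chosen by symbol, as every probe set to which the array's annotation gives one of these 8 names. Each name had 1 probe set, so the 8 genes are 8 of the 18193 genes measured. The cells were Ba/F3, a pro-B cell line that needs interleukin-3 to grow, transduced with the fusion SPAG9-JAK2 under a Tet-On promoter. In induced cells the fusion was switched on with doxycycline at 500 ng/ml for 48 hours (3 arrays), and uninduced cells carried the same construct and received no doxycycline (3 arrays). The comparison asks which genes differ when the fusion is made. No group received doxycycline without the fusion, so the drug and the fusion cannot be told apart. The sources used here do not say whether the line is 1 clone or a pool, or whether the cultures held interleukin-3.

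GATA1 is a zinc finger protein that binds GATA sites and is needed for red cells and megakaryocytes to mature. It often acts in a complex in which TAL1, a basic helix-loop-helix protein, binds DNA beside it and LMO2 links both to the adaptor LDB1. KLF1 activates the adult beta-globin gene and other red cell genes through CACCC boxes, and NFE2 pairs with small MAF proteins to switch on genes of platelet release. EPOR, the erythropoietin receptor, has no kinase of its own and signals through JAK2, the kinase part of the fusion. ITGA2B (CD41) is the alpha chain of the platelet fibrinogen receptor, and PF4 is a chemokine stored in platelet granules.

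RefSeq promoter windows, from 250 bases before to 50 bases after a start site (GRCm38.p6), were at hand for 6 of the 8 genes. Of these, 3 are printed here, since Klf1 and Gata1 were the 2 genes whose groups did not overlap and Itga2b had the lowest difference of the 8. Lower case letters are sequence, and capitals mark matches on either strand to a GATA word (GATA with A or T before it and A or G after it) or to the KLF1-type word CCNCNCCC. Windows are written 5′ to 3′ in the direction of the gene, at chr8:84901732-84902031 (plus strand) for Klf1, chrX:7967861-7968160 (minus strand) for Gata1 and chr11:102469834-102470133 (minus strand) for Itga2b.
Klf1: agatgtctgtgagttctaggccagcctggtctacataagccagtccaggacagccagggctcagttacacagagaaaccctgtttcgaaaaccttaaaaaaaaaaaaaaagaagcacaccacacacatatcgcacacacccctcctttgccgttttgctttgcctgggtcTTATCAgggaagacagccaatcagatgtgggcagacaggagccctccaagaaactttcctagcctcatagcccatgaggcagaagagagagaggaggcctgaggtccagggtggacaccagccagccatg
Gata1: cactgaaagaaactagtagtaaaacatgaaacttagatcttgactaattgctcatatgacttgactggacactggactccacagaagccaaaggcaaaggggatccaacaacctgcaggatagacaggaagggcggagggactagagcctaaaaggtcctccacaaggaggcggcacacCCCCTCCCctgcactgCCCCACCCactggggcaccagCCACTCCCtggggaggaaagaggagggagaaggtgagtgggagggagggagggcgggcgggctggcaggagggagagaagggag
Itga2b: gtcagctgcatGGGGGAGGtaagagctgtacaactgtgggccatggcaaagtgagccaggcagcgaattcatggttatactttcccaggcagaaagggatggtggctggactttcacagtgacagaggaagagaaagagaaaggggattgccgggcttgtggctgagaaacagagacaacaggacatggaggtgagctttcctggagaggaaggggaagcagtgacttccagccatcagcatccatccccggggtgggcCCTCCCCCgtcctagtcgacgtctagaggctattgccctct
The Klf1 window held 1 GATA word, starting at base -80 from the start site, and 0 KLF1-type words. The Gata1 window held 0 GATA words and 3 KLF1-type words, at bases -71, -55 and -34, while the Itga2b window held 0 and 2, at bases -239 and 10. An E-box of the form CAGNTG, which overlapped none of the capitals, started at base -59 in the Klf1 window and at bases -248 and -220 in the Itga2b window. The STAT word TTCNNNGAA was in none of the 3 windows. Of 32851 such windows in the mouse genome 29.8% held a GATA word, 49.5% a KLF1-type word, 51.4% the E-box and 8.3% the STAT word, so each match is a description and not a site. The search covered both strands, and words could overlap.

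Values are signal intensities on a linear scale, and a difference is the mean of log2(signal + 16) in induced cells minus that in uninduced cells. A gene is called dim where both group means lay under the level that 90% of 44 liver and brain genes did not exceed, 6.22 on induced and 6.27 on uninduced arrays on the log2 scale. Array medians ranged from 46.3 to 55 in induced and from 46.2 to 63.6 in uninduced cells, and uninduced replicate 1 was the highest. Uninduced replicate 1 stood apart from uninduced replicates 2 and 3: 1470 genes passed without it, against 34 of 18193 with all arrays. Without uninduced replicate 2, or without uninduced replicate 3, 0 passed. Of the 34, 21 were higher and 13 lower in induced cells, and with each array centred on its median there were 24 and 6. Each of the 8 genes is therefore given with and without uninduced replicate 1. In the gene lists below, genes whose call changes without it are named, and only some are given with values. Jak2, read by its brighter probe set, gave signals of 1430, 1740 and 1600 on induced arrays, against 1175, 3439 and 3081 on uninduced arrays, and Spag9 gave 2219, 1667 and 1938, against 2222, 4702 and 4660. Neither was higher in induced cells, and without uninduced replicate 1 both passed in limma as lower, Jak2 at -1.03 ± 0.16 (adjusted p of 0.0316) and Spag9 at -1.27 ± 0.17 (0.0275). Without uninduced replicates 2 and 3 in turn, Jak2 stood at -0.26 and -0.34 (adjusted p of 0.833 and 0.798 in limma). Spag9 then stood at -0.73 and -0.74 (0.486 and 0.507). The dimmer probe set of Jak2 gave -0.80 with all arrays, and those of Spag9 gave -0.07 and 0.67. The sources used here do not say whether these probe sets match the construct, so they do not check the labels. The arrays measured bulk RNA, in which fewer cells of a type and less RNA per cell cannot be told apart.

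The 4 genes with a higher mean in induced cells were the factors Klf1, Lmo2, Gata1 and Tal1, and the 4 with a lower mean were Itga2b, Nfe2, Pf4 and Epor. Klf1 stood about 2-fold higher, with a narrow spread, and was the nearest of the 8 to the threshold. None of the 8 passed: 0 of 8 had an adjusted p under 0.05 in limma over all genes, where 0.187% of all genes did, and 0 of 8 passed over all probe sets, where 0.0377% did. At an unadjusted p under 0.05 there were 2 of 8, Klf1 and Gata1, beside 17.4% of all genes (7.14% higher and 10.3% lower) and 24.6% of the genes that were not dim. The groups did not overlap for the same 2 genes, both higher in induced cells, beside 24.1% of all genes (10.7% with the induced arrays above) and 34.4% of the 10433 that were not dim. That share is near the background.

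**Figure D1:**
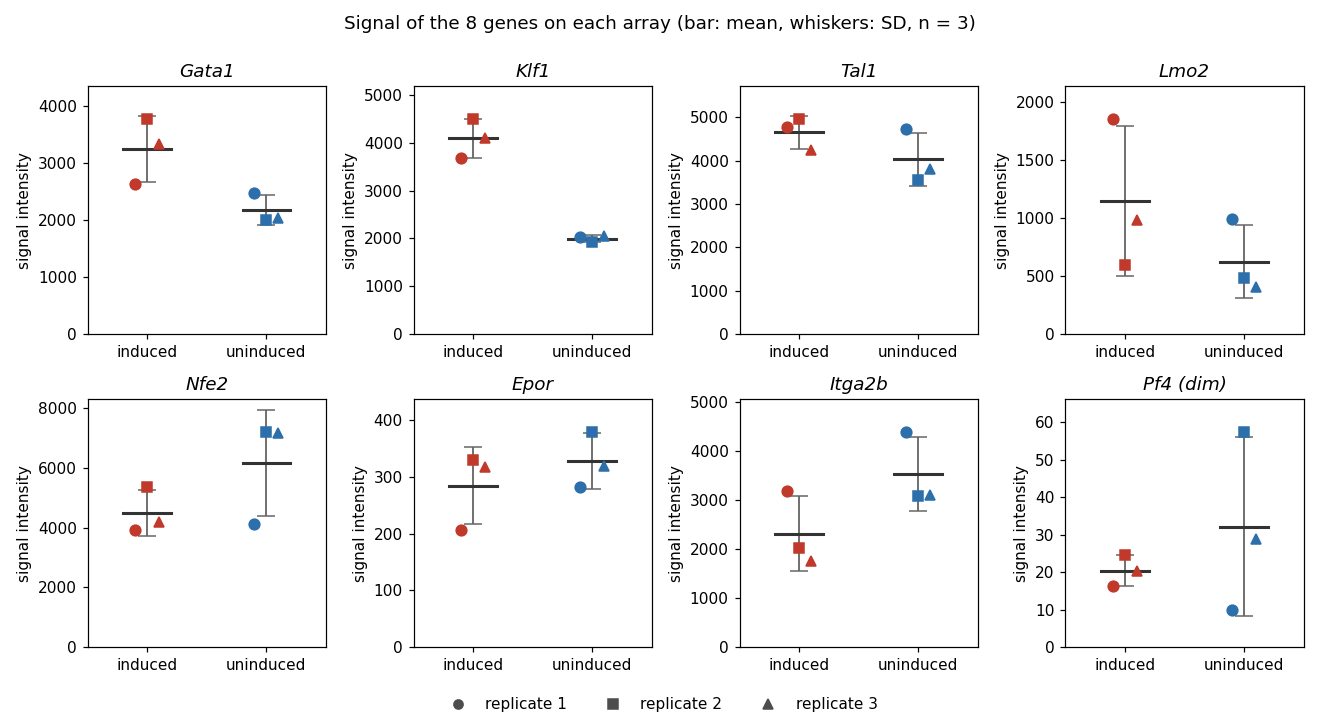
Signal intensity (linear, each axis from 0) of the 8 genes on the 3 induced arrays (left, red) and the 3 uninduced arrays (right, blue), with the marker shape giving the replicate number, the bar the mean and the whiskers the SD (n = 3). All 3 induced arrays lie above all 3 uninduced arrays for Gata1 and Klf1, and the groups overlap for the other 6 genes.

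Klf1 gave signals of 3687, 4499 and 4097 on induced arrays, against 2025, 1922 and 2049 on uninduced arrays. Every induced value was clear of every uninduced one, and uninduced replicate 1 sat among its group. The means were 4094 ± 406 in induced and 1999 ± 67.6 in uninduced cells (SD, n = 3 each). The difference was 1.02 ± 0.16 (log2, SE), a fold of 2.03 with a 95% interval of 1.57 to 2.64, and the adjusted p in limma was 0.0825. It was rank 96 among all genes by p-value. The difference was 0.86 in the arrays numbered 1, 1.22 in those numbered 2 and 0.99 in those numbered 3. Klf1 passed in 5 of 17 alternatives in limma. Without uninduced replicate 1 the difference was 1.03 ± 0.15 with an adjusted p of 0.0306, where 8.08% of all genes passed. The others were a pseudocount of 64 (1.39% of all genes passed), a filter at the median level (8.16% of those kept), trended and robust variance (3.02%) and leaving out both arrays numbered 1 (8.24%). With the replicate number as a block, under which 0 genes passed, the adjusted p of Klf1 was 0.198. Leaving out any other single array gave an adjusted p in limma from 0.121, without induced replicate 1, to 0.278, without uninduced replicate 3.

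Gata1 gave 2634, 3784 and 3335 on induced arrays, against 2480, 2002 and 2044 on uninduced arrays. The groups were separate by a small margin, since induced replicate 1 was the lowest of its group and uninduced replicate 1 the highest of its own. The difference was 0.57 ± 0.20 (log2, SE), a fold of 1.48 with a 95% interval of 1.06 to 2.07 and an adjusted p in limma of 0.23. In the arrays numbered 1 it was 0.09, and in those numbered 2 and 3 it was 0.91 and 0.70. It was 0.66 ± 0.20 without uninduced replicate 1, with an adjusted p of 0.11. It passed in 0 of 17 alternatives, whose adjusted p ranged from 0.0518, without both arrays numbered 1, to 0.5.

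Tal1 gave 4764, 4963 and 4234 on induced arrays, against 4726, 3560 and 3796 on uninduced arrays. Uninduced replicate 1 was as high as the induced arrays, so that the groups overlapped, while uninduced replicates 2 and 3 lay below all 3 of them. The difference was 0.22 ± 0.18 (log2, SE), and the 95% interval of the fold, 0.86 to 1.56, lies on both sides of 1 (adjusted p of 0.576 in limma). Without uninduced replicate 1 it was 0.34 ± 0.14, with an adjusted p of 0.228.

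Lmo2 gave 1855, 593 and 987 on induced arrays, against 988, 481 and 406 on uninduced arrays. Both arrays numbered 1 were the highest of their groups, and within each number the induced array was the higher one, by 0.90, 0.29 and 1.25. The spread within the groups, 645 in induced and 317 in uninduced cells (SD of the signal, n = 3 each), was the widest of the bright factors relative to its mean. The difference was 0.81 ± 0.50 (log2, SE), a fold of 1.76 with a 95% interval of 0.77 to 4.04 and an adjusted p in limma of 0.449. With the replicate number as a block the SE was 0.24 and the adjusted p 0.245, and leaving out single arrays moved the difference between 0.39 and 1.2. It was 1.19 ± 0.49 without uninduced replicate 1 (adjusted p of 0.211), and without induced replicate 1 it was 0.39 ± 0.46.

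Nfe2 gave 3921, 5362 and 4198 on induced arrays, against 4117, 7213 and 7160 on uninduced arrays. Uninduced replicates 2 and 3 lay above every induced array, and uninduced replicate 1 lay among them. The difference was -0.42 ± 0.27 (log2, SE), a fold of 0.75 with a 95% interval of 0.47 to 1.18 and an adjusted p in limma of 0.475. Without uninduced replicate 1 it was -0.69 ± 0.19, with an adjusted p of 0.089.

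Itga2b gave 3176, 2022 and 1746 on induced arrays, against 4392, 3069 and 3098 on uninduced arrays. Induced replicate 1 lay just above uninduced replicates 2 and 3, so the groups overlapped, although within each number the induced array was the lower one, by -0.47, -0.60 and -0.82. The difference was -0.63 ± 0.28 (log2, SE), a fold of 0.65 with a 95% interval of 0.4 to 1.03 and an adjusted p in limma of 0.312. It shrank to -0.46 ± 0.29 without uninduced replicate 1 (adjusted p of 0.392). Over all 17 alternatives the adjusted p ranged from 0.0634, without both arrays numbered 1, to 0.574, and the replicate block gave 0.228.

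Epor gave 206, 330 and 318 on induced arrays, against 282, 380 and 320 on uninduced arrays. The ranges overlapped for the most part, and all 6 values lay above the dim line. The difference was -0.21 ± 0.23 (log2, SE), a fold of 0.87 with a 95% interval of 0.59 to 1.28, and an adjusted p of 0.686 in limma. Without induced replicate 1 it was 0.00 ± 0.19, and without uninduced replicate 1 it was -0.31 ± 0.25 (adjusted p of 0.514).

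Pf4 gave 16.2, 24.5 and 20.4 on induced arrays, against 10, 57.5 and 28.8 on uninduced arrays. It was dim in both groups, 5.18 and 5.46 on the log2 scale, and the only dim gene of the 8. The median liver or brain gene lay at 5.37 in induced and 5.17 in uninduced cells. Its difference of -0.28 ± 0.38 (log2, SE, adjusted p of 0.74 in limma) turned to 0.09 without uninduced replicate 2, was -0.66 ± 0.26 without uninduced replicate 1 (adjusted p of 0.192), and is not read further.

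**Figure D2:**
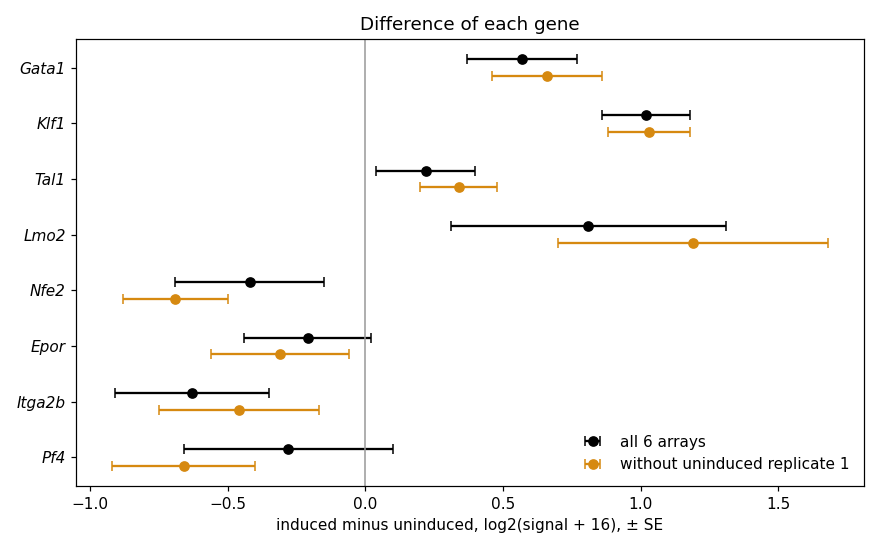
Difference between induced and uninduced cells on the log2(signal + 16) scale for each of the 8 genes, with whiskers of 1 SE, from all 6 arrays (black) and without uninduced replicate 1 (orange). Gata1, Klf1, Tal1 and Lmo2 lie right of 0 and Nfe2, Epor, Itga2b and Pf4 left of it in both, and only Klf1 without uninduced replicate 1 passed the threshold.

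In the 3 pairs of same-numbered arrays 7 of the 8 genes kept 1 direction in every pair. Klf1, Gata1, Tal1 and Lmo2 were higher in the induced array of each pair, and Nfe2, Itga2b and Epor were lower, although the differences of 0.01 for Tal1 in pair 1 and -0.01 for Epor in pair 3 were close to 0. Among all genes 43.4% kept 1 direction in the 3 pairs, and among those not dim 56.2% did.

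The partners of GATA1 and TAL1 had mostly lower means in induced cells. Of 14 measured, 0 passed in limma over all genes. At an unadjusted p under 0.05 there were 4, all lower, beside 10.3% of all genes that were lower at that p. The median difference was -0.26 beside -0.06 for all genes. Lyl1, a relative of Tal1 with overlapping roles, gave 4120, 4113 and 3082 on induced arrays, against 7072, 6041 and 6016 on uninduced arrays. Gfi1b, a repressor needed for red cell and megakaryocyte development, gave 1707, 2149 and 1798, against 2665, 4190 and 3534. Neither gene's groups overlapped, as was so for 34.4% of genes not dim. The differences were -0.76 ± 0.19 and -0.85 ± 0.22 (log2, SE), with adjusted p of 0.144 and 0.15 in limma. Gfi1b was the 1 gene of the 14 that passed without uninduced replicate 1, at -1.03 ± 0.17 (adjusted p of 0.0374), where 4.84% of all genes passed as lower. It stood at -0.71 and -0.83 without uninduced replicates 2 and 3 in turn. Ssbp2, an LDB1-binding protein, stood at -1.52 ± 0.49 (log2, SE) at signals of 6, 54 and 10 on induced arrays, against 52, 117 and 91 on uninduced arrays, and its 3 dimmer probe sets gave from -0.23 to 0.43.

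Gata2, which precedes GATA1 at many of the same sites in early precursors, gave 5062, 7771 and 7089 on induced arrays, against 7220, 11084 and 11477 on uninduced arrays. Its difference was -0.57 ± 0.26 (log2, SE, adjusted p of 0.327 in limma), opposite in sign to that of Gata1, and its other probe set gave -0.29. The other 4 GATA genes were low: Gata3 and Gata5 were dim at -0.02 and 0.04, Gata6 stood at 0.25 ± 0.39, and Gata4, at signals from 19.1 to 31.8 on induced and from 51.8 to 88.1 on uninduced arrays, stood at -0.95 ± 0.23 (adjusted p of 0.144 in limma). Its dimmer probe set gave 0.04. In total 0 of 6 passed, and 2 had an unadjusted p under 0.05, Gata1 higher and Gata4 lower, beside 17.4% of all genes.

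Among the 16 measured genes of the Krüppel-like family Klf1 was the only 1 of the 7 with an unadjusted p under 0.05 that was higher in induced cells. None passed over all genes in limma, and the median difference was -0.21. At an unadjusted p under 0.05, 7.14% of all genes were higher and 10.3% lower. Klf9, a broadly expressed member, gave 1058, 1136 and 883 on induced arrays, against 2088, 2692 and 2794 on uninduced arrays, a difference of -1.28 ± 0.19 (log2, SE) with an adjusted p of 0.0825. Its 6 other probe sets were also lower, from -1.57 to -0.44. Klf12 stood at -1.69 ± 0.29 with induced signals of 5.8 to 23, but its 4 dimmer probe sets gave from -0.51 to 0.55. Klf6, named here after its values were seen, stood at -2.01 ± 0.47, with 546, 806 and 793 on induced arrays, against 1362, 4404 and 3997 on uninduced arrays. Without uninduced replicate 1 the family had 1 gene higher (Klf1) and 6 lower (Klf6, Klf9, Klf10, Klf11, Klf12 and Klf13), beside 3.24% and 4.84% of all genes.

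Of the 4 LMO genes Lmo2 and Lmo4 were above the dim line. Lmo4, which like LMO2 binds LDB1, gave 1489, 2958 and 3016 on induced arrays, against 1826, 3336 and 3107 on uninduced arrays, a difference of -0.17 ± 0.37 (log2, SE). Lmo1 and Lmo3 were dim at -0.90 ± 0.34 and 0.04 ± 0.19. In limma 0 of 4 passed, with 1 at an unadjusted p under 0.05 (Lmo1), beside 17.4% of all genes.

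Of the 9 measured relatives and partners of NFE2, Nfe2 included, 7 had lower means in induced cells. In all 0 passed in limma over all genes and 4 had an unadjusted p under 0.05, all lower, beside 10.3% of all genes. The median was -0.42. Nfe2l1, a relative that drives proteasome genes, gave 705, 717 and 660 on induced arrays, against 1371, 1272 and 1324 on uninduced arrays, with uninduced replicate 1 among its group. The difference was -0.91 ± 0.14 (log2, SE) with an adjusted p of 0.0851. Mafg, a small MAF partner of NFE2, gave 1280, 1207 and 1211, against 1833, 2335 and 1969, a difference of -0.72 ± 0.16. Bach1, a haem-regulated repressor at the same sites, gave 1393, 1400 and 1325, against 1684, 2400 and 2208, a difference of -0.59 ± 0.19. The groups did not overlap for any of these 3 genes, beside 34.4% of genes not dim. They were the 3 of 9 that passed without uninduced replicate 1, all lower, where 4.84% of all genes did. Without both arrays numbered 1 Nfe2l1 passed (adjusted p of 0.0436), and Mafg and Bach1 did not (0.0577 and 0.0526).

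**Figure D3:**
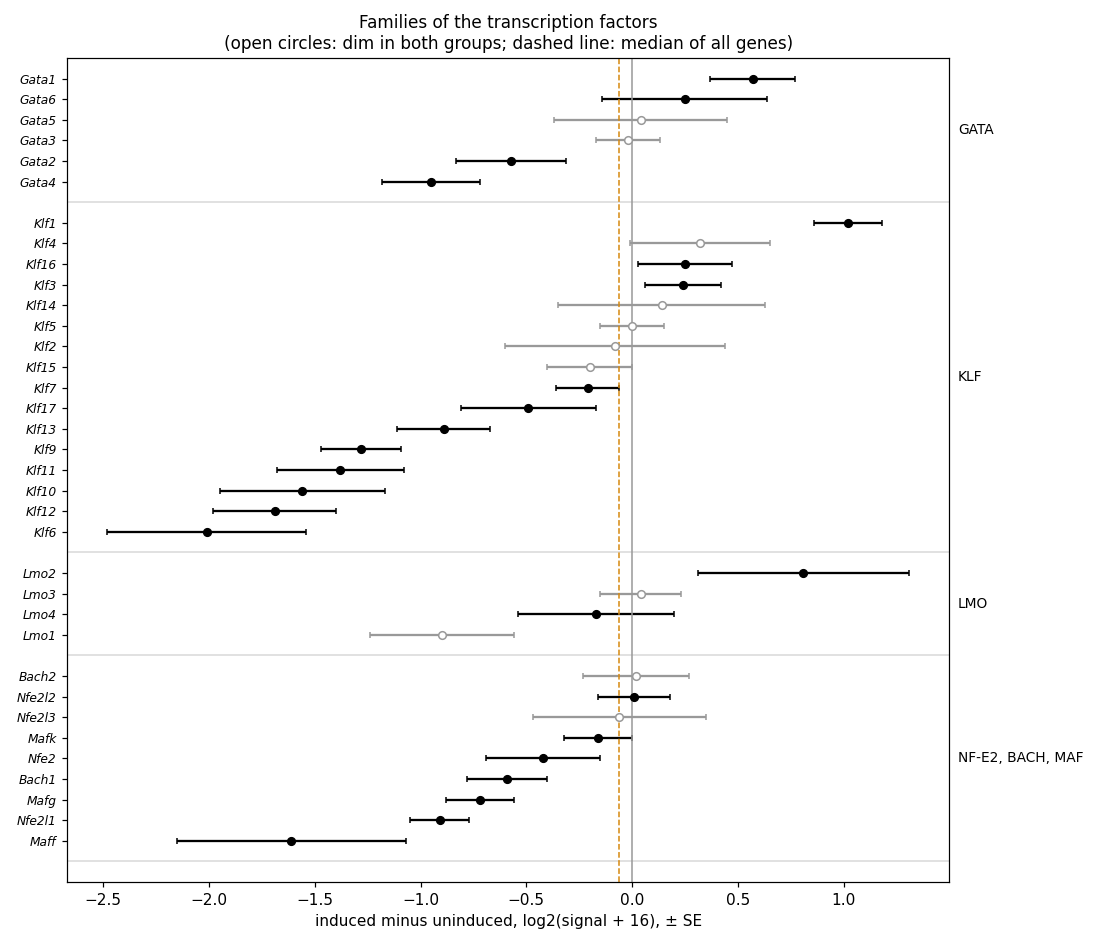
Difference between induced and uninduced cells on the log2(signal + 16) scale, with whiskers of 1 SE, for the measured GATA, KLF, LMO and NF-E2, BACH and MAF genes, grouped by family and sorted. Open circles are dim in both groups and the dashed line is the median of all genes, -0.06. Gata1, Klf1 and Lmo2 are the highest of their families, and Nfe2 is the median of its own.

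The erythroid marker list, which includes Klf1, Tal1 and Epor, had 26 measured genes, 10 of them dim. In limma 0 passed over all genes and 2 had an unadjusted p under 0.05, both higher, beside 7.14% of all genes. The median difference was 0.16, beside -0.06 for all genes. In induced cells 18 of 26 means were higher (12 without uninduced replicate 3). The haem synthesis gene Alas2, the adult alpha-globin gene Hba-a1 and the anion exchanger gene Slc4a1, named after their values were seen, were dim, with signals of at most 9, 33.3 and 38. Hba-a1 was read by 1 probe set, and probe sets with several symbols were not used. Its low signal therefore does not show that the gene is off. Other adult globin genes, also named after their values were seen, were above the dim line. Hba-a2, the paired alpha-globin gene, gave 287, 622 and 528 on induced arrays, against 242, 434 and 394 on uninduced arrays, and the beta-globin gene Hbb-b2 gave 155, 157 and 178, against 180, 70 and 101. Both overlapped between the groups. The other probe set of Hbb-b2 gave a difference of 1.39 (adjusted p of 0.616 in limma over all probe sets), against 0.51 for the probe set shown. Hbb-bh1, an embryonic beta-like globin gene, gave 144, 665 and 919 on induced arrays, against 204, 42 and 32 on uninduced arrays, a difference of 2.46 ± 0.84 (log2, SE, adjusted p of 0.222). Rhag, a red cell membrane protein gene, gave 2587, 1424 and 1662, against 1918, 115 and 112, a difference of 2.54 ± 1.06 (adjusted p of 0.287). Uninduced replicate 1 lay with the induced arrays for both. Hbb-y, the embryonic epsilon-like globin gene, named after its values were seen, gave 3747, 7630 and 8876 on induced arrays, against 22656, 586 and 592 on uninduced arrays. There uninduced replicate 1 was the highest of all 6, and the difference was 1.65 ± 1.42. It was 3.39 ± 0.40 without that array (adjusted p of 0.0218 in limma), and 0.77 and 0.78 without uninduced replicates 2 and 3. Rhag stood at 3.84 ± 0.29 without uninduced replicate 1 (adjusted p of 0.0132) and at 1.89 and 1.88 without uninduced replicates 2 and 3. Hbb-bh1 stood at 3.15 ± 0.80 without uninduced replicate 1 (adjusted p of 0.0797). With all arrays the other probe sets of Hbb-bh1 gave 2.7 and 2, and those of Hbb-y gave 1.7 and 1.87. The beta-like globin genes are near copies of each other, and the probe sets used here may read more than 1 of them. Without uninduced replicate 1 the list had 3 genes higher (Klf1, Rhag and Hbb-y) and 0 lower, beside 3.24% and 4.84% of all genes. Rhd, named after its values were seen, lay the other way. It gave 75, 261 and 254 on induced arrays, against 132, 650 and 608 on uninduced arrays (-1.06 ± 0.71). Without both arrays numbered 1 the list had 4 genes higher (Hbb-bh1, Hbb-y, Klf1 and Rhag) and 1 lower (Rhd), where 8.24% of all genes passed. The median difference lay between -0.05, without uninduced replicate 3, and 0.35, with a filter at the median level.

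The megakaryocyte and platelet list, which includes Itga2b, Pf4 and Nfe2, had 26 measured genes, 11 of them dim. In limma 0 passed over all genes and 7 had an unadjusted p under 0.05, 2 higher and 5 lower, beside 7.14% and 10.3% of all genes. The median difference was -0.38, beside -0.06 for all genes. In induced cells 21 of 26 means were lower (18 with each array centred on its median). Ppbp, a platelet chemokine gene like Pf4, gave 1, 1 and 5 on induced arrays, against 30, 128 and 84 on uninduced arrays, a difference of -2.25 ± 0.42 (log2, SE, adjusted p of 0.102) whose size is uncertain because the induced values are dim. Gp9, a subunit of the von Willebrand factor receptor, gave 524, 329 and 352, against 684, 604 and 565, a difference of -0.63 ± 0.22 (adjusted p of 0.23), close to that of Itga2b. P2ry1, a platelet receptor for ADP, had a higher mean in induced cells, with 545, 526 and 665 on induced arrays, against 470, 189 and 275 on uninduced arrays (0.94 ± 0.33, adjusted p of 0.227). Itgb3, the beta chain that pairs with ITGA2B, named after its values were seen, gave 854, 33 and 20 on induced arrays, against 444, 13 and 4 on uninduced arrays. Only the arrays numbered 1 showed it above the dim line, 1 in each group, and the difference was 0.84 ± 1.62. Without uninduced replicate 1 the list had 1 gene higher (P2ry1) and 2 lower (Clec1b and Ppbp), beside 3.24% and 4.84% of all genes, so that both shares are near the background. Clec1b was dim in both groups, with 5.1, 6.4 and 11.9 on induced arrays, against 59.5, 28.5 and 31.8 on uninduced arrays.

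**Figure D4:**
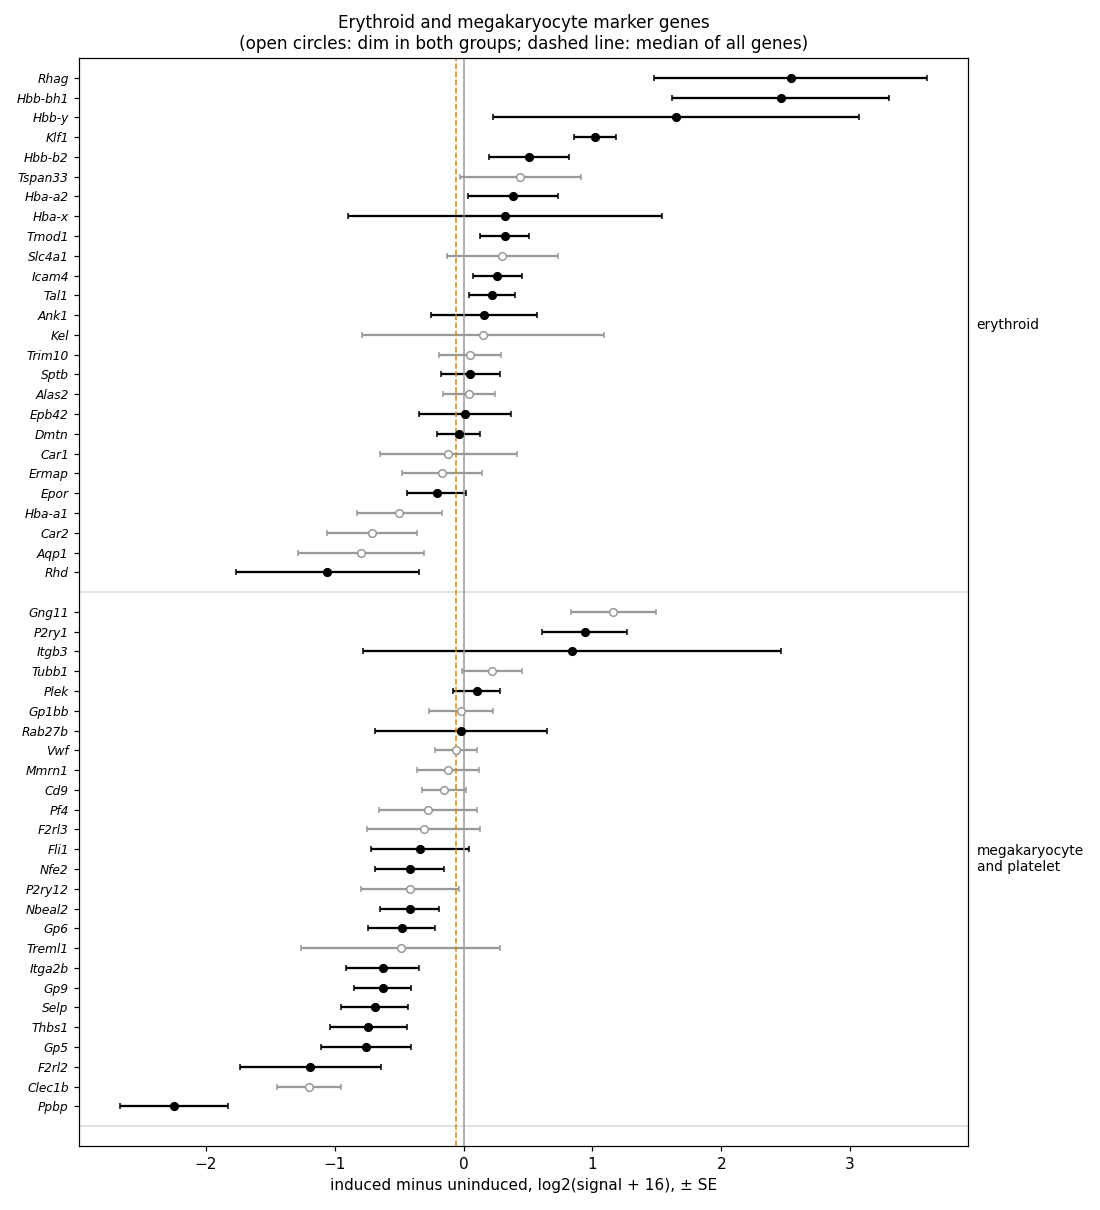
Difference between induced and uninduced cells on the log2(signal + 16) scale, with whiskers of 1 SE, for the 26 erythroid and the 26 megakaryocyte and platelet genes measured, sorted within each list. Open circles are dim in both groups and the dashed line is the median of all genes, -0.06. Of the 26 erythroid genes 18 lie right of 0, with wide whiskers for Rhag, Hbb-bh1 and Hbb-y. Of the 26 megakaryocyte genes 21 lie left of 0.

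Markers of other blood cells also had differing means, and their part in the differences was not tested. Of 17 granulocyte and monocyte genes measured 0 passed in limma and 6 had an unadjusted p under 0.05. All 6 were lower in induced cells, beside 10.3% of all genes. The summed signal of the list ranged from 2324 to 6096 on induced and from 3832 to 12190 on uninduced arrays. The 3 with the smallest p were Ltf (-2.27 ± 0.33), S100a8 (-2.18 ± 0.47) and Adgre1 (-2.18 ± 0.58), and Ltf and S100a8 were dim in induced cells. The list had 0 genes higher and 3 lower (Ltf, Adgre1 and Csf1r) without uninduced replicate 1, beside 3.24% and 4.84% of all genes. Of 13 mast cell and basophil genes 1 was higher and 2 lower at an unadjusted p under 0.05, beside 7.14% and 10.3% of all genes. In limma 0 passed, with sums from 11118 to 18104 on induced and from 16421 to 24909 on uninduced arrays. Mitf stood at -1.22 ± 0.20 by its brighter probe set, while the dimmer one gave 0.53 and the mean of both -0.35 (adjusted p of 0.415 in limma). Cma1 stood at -3.36 ± 0.76. Both passed as lower without uninduced replicate 1, Mitf at -1.12 ± 0.20 and Cma1 at -4.16 ± 0.52. In that setting 4.84% of all genes passed as lower. Without uninduced replicates 2 and 3 in turn, Mitf stood at -1.23 and -1.31 and Cma1 at -3 and -2.92. The adjusted p in limma was then 0.253 and 0.272 for Mitf, and 0.344 and 0.359 for Cma1. Of the 13 genes 8 were dim, among them Kit, Fcer1a and Mcpt8, while Slc18a2, a monoamine transporter gene, ranged from 5571 to 10270 on induced and from 8132 to 11420 on uninduced arrays. Ms4a2, the beta chain of the IgE receptor, ranged from 39 to 339 on induced and from 65 to 149 on uninduced arrays. These 5 were named after their values were seen. Of 16 B-lineage genes 11 were dim, among them Cd79a, Ebf1, Rag1 and Vpreb1, and 5 were not: Bank1, Cd79b, Pax5, Igll1 and Cd22. Pax5, Igll1 and Cd22 lay near the dim line, with log2 means over all arrays of 6.06, 6.16 and 6.47. Their dimmer probe sets lay at 4.78, 5.06 and 4.85. Each of these genes was named after its values were seen. Cd79b, a chain of the B cell receptor, gave 293, 424 and 399 on induced arrays, against 307, 404 and 403 on uninduced arrays, and Bank1, a B cell scaffold gene, gave 2226, 2667 and 1978, against 3138, 2112 and 1942. Of the markers of the pro-B label, Bank1 and Cd79b were thus clear of the dim line, Pax5, Igll1 and Cd22 near it and the rest below it. The sums of the B-lineage list ranged from 2892 to 3511 on induced and from 2807 to 4200 on uninduced arrays. In limma 0 passed, and 1 was higher at an unadjusted p under 0.05, beside 7.14% of all genes. Among 15 factors of blood lineage choice 0 passed in limma with all arrays. At an unadjusted p under 0.05, 1 was higher and 2 were lower, beside 7.14% and 10.3% of all genes. Without uninduced replicate 1 there was 1 higher (Ikzf1) and 1 lower (Gfi1b), beside 3.24% and 4.84% of all genes. Ikzf1, a zinc finger factor of lymphoid and other blood cells, gave 650, 1309 and 1103 on induced arrays, against 611, 53 and 34 on uninduced arrays (2.94 ± 0.94, adjusted p of 0.206 in limma), with uninduced replicate 1 next to the induced arrays. Without that array it stood at 4.08 ± 0.35, with an adjusted p of 0.0132. It stood at 2.49 and 2.26 without uninduced replicates 2 and 3 in turn.

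Genes with the profile most like each of the 7 that were not dim were looked up among the 9096 others at or above the median level, by Pearson's correlation over the 6 arrays. With so few arrays and so many genes close matches arise readily, and the arrays share the group difference, so the names are a description. For Klf1 they were Mrpl12, Cdca3 and Mlkl (0.9975 to 0.9972), and for Gata1 they were Eif2b5, Tsfm and Rinl (0.9994 to 0.9959). The nearest were Rtcb, Sf1 and Pms2 to Tal1, Urb1, Vipas39 and Rint1 to Lmo2, and Tnfaip8, Tmem192 and Dctn1 to Nfe2. For Epor they were Ssh3, Fbxo31 and Acp2, and for Itga2b Zcchc2, Cxxc5 and Harbi1.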

How the data were processed

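RNA of 6 Ba/F3 cultures was measured on 6 Affymetrix 3′ arrays, 3 induced and 3 uninduced by their titles. The values the authors deposited are linear signal intensities, 1 per probe set. The submitters' processing notes name Affymetrix Expression Console 1.4.1 but, as far as the sources used here go, no summary algorithm. Each array's trimmed mean (2% off each end) was 500 in the values. No detection calls were used, and precision is limited by the number of arrays.

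Of 45101 probe sets 64 controls were left out. Of the other 45037 the platform table named 34945 with 1 symbol, 932 with several and 9160 with none. The probe set with the highest mean stood for each of 18193 genes. Values were taken as log2(signal + 16) and tested with limma 3.58.1 (two-sided, Benjamini-Hochberg over all genes, threshold 0.05) in R 4.3.3, and again over every probe set. A permutation test of 3 against 3 arrays has 0.1 as its smallest p. The procedure was tested on simulated data. The simulated noise was independent and no array was outlying, so that test does not cover the dependence on uninduced replicate 1.

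Deviations from the group means correlated within replicate numbers (0.3, 0.15 and 0.23 over 10433 genes not dim), so the numbers were taken to pair the arrays, from these correlations and not from the labels. The main fit did not use this pairing, so its SE, intervals and p-values are unpaired, and the replicate block was an alternative. With the block the SE went from 0.50 to 0.24 for Lmo2, from 0.28 to 0.16 for Itga2b and from 0.20 to 0.23 for Gata1. The labels describe a triplicate seeding, so p-values measure the spread between these cultures, which may be technical. The genes named beside the 8 are, per list, those not dim with the smallest p (up to 3), or the whole list where it has at most 6. Genes that passed only in an alternative are named beside its count, and other genes outside this rule are marked in the text as named after their values were seen. The 8 genes and the lists were chosen with earlier results of these data known. Figures were drawn with matplotlib 3.10.9.

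Alternatives covered the replicate block, array scaling (median or quantile), pseudocounts of 1 and 64, filters on low signal, the variance model, the choice of probe set, and leaving out each array or both arrays numbered 1.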

Additional observations from a re-analysis of the deposited data

How the results depend on the processing

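The number of genes past the threshold in limma, 34 with the settings as reported, was 0 with a replicate block (3269 at an unadjusted p under 0.05), 0 with a pseudocount of 1 (2816), 19 with the most variable probe set, 69 with a filter at the 25th percentile, 252 with a pseudocount of 64, 550 with trended and robust variance, 742 with a filter at the median and 1500 without both arrays numbered 1. Over every probe set, in place of 17, it was 0 with a replicate block, with a pseudocount of 1 or without both arrays numbered 1 (6401, 5364 and 11167 unadjusted), 30 with median centring, 46 and 171 with the filters, 136 with a pseudocount of 64 and 541 with trended and robust variance. Leaving out single arrays gave from 0 to 1470 genes and from 0 to 1374 probe sets, the highest without uninduced replicate 1. It gave 12, 0 and 1 genes without induced replicates 1, 2 and 3, and 0 and 0 without uninduced replicates 2 and 3 (2231, 2089 and 2001 at an unadjusted p under 0.05 where 0 passed). Of the 8 genes 0 passed as reported and 1, Klf1, with a pseudocount of 64 (adjusted p of 0.0199), the median filter (0.0149), trended and robust variance (0.00957) and without both arrays numbered 1 (0.0399), and from 0 to 1 without single arrays. Its probe set passed over every probe set with the first 3 of these (1 each). The replicate block could change no call among the 8 genes, since 0 of them passed as reported and 0 of all genes passed with it. The cause of these shifts was not tested.

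Klf1, Gata1, Tal1, Lmo2, Nfe2 and Itga2b kept their sign in all 17 alternatives, with differences of 0.95 to 1.11 for Klf1, 0.45 to 0.81 for Gata1, 0.13 to 0.34 for Tal1, 0.39 to 1.2 for Lmo2, -0.69 to -0.29 for Nfe2 and -0.88 to -0.45 for Itga2b. Epor ranged from -0.33 to 0, and Pf4 from -0.66 to 0.09, its value without uninduced replicate 2; the median filter left Pf4 out. Low signal limits what can be said of Pf4 and of the dim markers.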
